A study of Mus musculus with 2 samples.

Results

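The genes of the AMPA and NMDA receptor subunits were followed across the cell classes of the adult mouse striatum, glia included. They are 10 of the 32285 genes counted, chosen by symbol: *Gria1* to *Gria4* for the AMPA receptor, and *Grin1*, *Grin2a* to *Grin2d* and *Grin3a* for the NMDA receptor. All 10 were found in both count matrices and passed the filter on low counts in the fits over classes. The series holds 2 single-cell RNA sequencing (scRNA-seq) libraries, replicates 1 and 2 of a single untreated group, from dissociated striatum prepared by a protocol that favours non-neuronal cells and labelled glia enriched. The labels give the mice as C57/Bl6J and 8 to 10 weeks old, while the protocol text names C57BL/6NTac. The study asked what striatal astrocytes that express *Crym*, the gene of μ-crystallin, do for circuits and behaviour. It used scRNA-seq to find the cells that express *Crym*, and reduced *Crym* in other mice. For these 2 libraries no altered allele is named. The labels do not say which animals made which library, so differences between these 2 samples may be technical. The p-values measure how class differences vary between both, on a spread pooled over genes and classes.

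Both receptors are channels opened by glutamate and assembled from several subunits. AMPA receptors carry the fast part of excitatory synaptic currents, and assemblies that hold the edited GluA2 protein, made from *Gria2*, let little calcium through. NMDA receptors need GluN1, the product of *Grin1*. Their GluN2 subunits, from *Grin2a* to *Grin2d*, bind glutamate and set how long the channel stays open, and GluN3A, from *Grin3a*, lowers its passage of calcium. Oligodendrocyte precursor cells (OPCs) receive synapses from axons and respond through AMPA receptors, and astrocytes are also known to carry AMPA receptor subunits.

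Levels are given as CPM, the unique molecular identifiers (UMIs) of a gene scaled by the total UMIs of its class in a library. UMIs count captured 3′ ends and were not scaled by gene length. After removal of doublets, 6783 cells of library 1 and 5212 of library 2 remained, with 9 cell barcodes in common between the deposited libraries. Clusters were named by markers, with the 10 genes kept out of the genes used to cluster. The classes held 643 neuron-like, 1549 neuroblast-like, 642 OPC-like, 2389 oligodendrocyte-like, 2404 astrocyte-like, 2144 microglia-like, 171 macrophage-like, 1401 endothelial-like and 555 mural-like cells. A further 97 erythroid-like cells, 11 of them in library 2, entered no test. The neuron-like class raised all 8 of its markers, *Snap25*, *Syt1* and *Ppp1r1b* among them, and its marker UMIs summed to 10810 CPM in library 1 and 14878 in library 2. It also held a cluster of 69 cells led by astrocyte genes such as *Slc1a2* and a shallow cluster of 186 cells led by haemoglobin genes. Median depth differed between classes, from 1798 UMIs per astrocyte-like cell in library 1 to 12141 per oligodendrocyte-like cell in library 2.

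Among the AMPA receptor genes, *Gria2* had high levels in neurons, precursor cells and astrocytes. In neuron-like cells it stood at 2006 CPM in library 1 and 1987 in library 2. OPC-like cells held 1133 and 926, and astrocyte-like cells 726 and 743. These 3 classes did not overlap in CPM, which describes the values only, since the share of all genes without overlap is not given. In the edgeR fit, whose TMM factors rescale each class, the OPC-like and astrocyte-like levels were not separated, with a log2 difference of 0.05 ± 0.29 (SE, adjusted p = 0.91). Neuroblast-like cells held 410 and 317 and oligodendrocyte-like cells 103 and 57.1, each past the threshold from its neighbour in the order. The lowest levels, 9.35 to 45.5, were those of the microglia-like, macrophage-like, endothelial-like and mural-like classes, whose order did not separate beyond the spread.

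The other AMPA receptor genes each covered fewer classes. *Gria1*, whose GluA1 protein is moved into synapses during plasticity, stood at 351 and 417 CPM in neuron-like cells, against 38.8 and 45.5 in OPC-like cells. In astrocyte-like cells it was 13.7 in library 1 and 58.6 in library 2, so that it overlapped OPC-like cells. *Gria3* was high in neuron-like cells (425 and 339) and OPC-like cells (291 and 312), which the test did not separate (log2 difference 0.43 ± 0.21, adjusted p = 0.099), and lay between 0 and 14.0 in every other class. *Gria4* had its highest level in OPC-like cells (132 and 156), above neuron-like cells (69.8 and 103), and oligodendrocyte-like cells held 37.7 and 42.0. The fitted difference of neuron-like from OPC-like cells was -0.62 ± 0.24 on the log2 scale (adjusted p = 0.046). It was no longer past the threshold under DESeq2 (-0.39, adjusted p = 0.40), without the library as a block (-0.62, adjusted p = 0.087) or without the neuron-like sum of library 1 (-0.38, adjusted p = 0.36). Without either OPC-like sum the adjusted p was 0.084 and 0.22, and with thinned cells 0.18. Neuron-like and oligodendrocyte-like levels of *Gria4* were not separated (0.41 ± 0.24, adjusted p = 0.15).

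**Figure D1:**
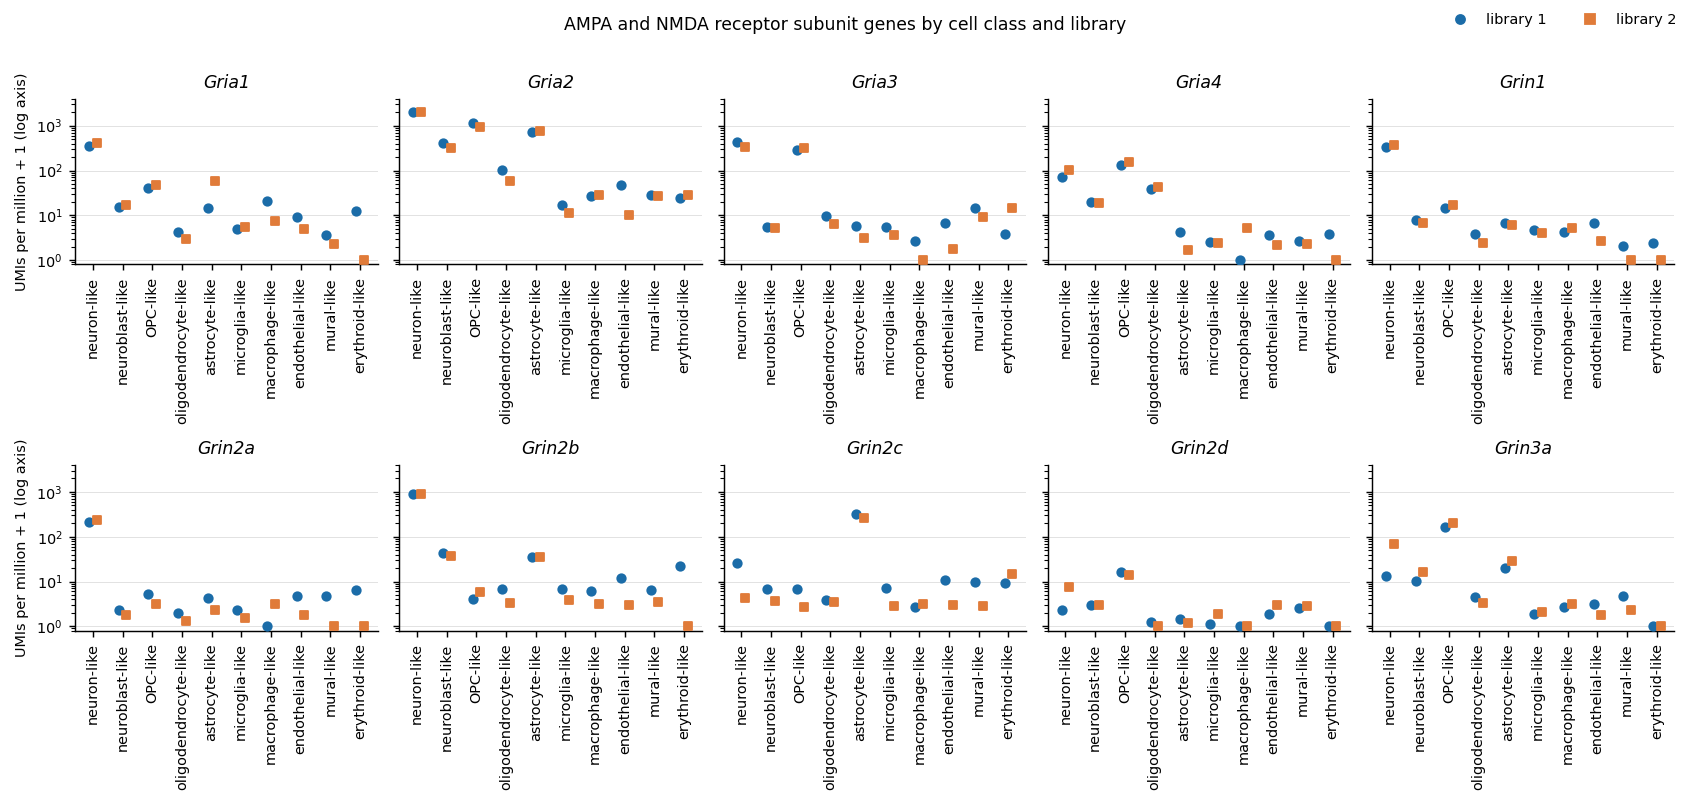
CPM plus 1, on a log axis, of the 10 receptor subunit genes in 10 cell classes, with 1 point for each library. *Gria2* is above 300 in neuron-like, neuroblast-like, OPC-like and astrocyte-like cells in both libraries, *Grin2a* is above 200 in neuron-like cells and at most 5.59 elsewhere, and *Grin2c* is above 250 in astrocyte-like cells.

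The NMDA receptor genes fell into 3 patterns. *Grin1*, *Grin2a* and *Grin2b* were highest in neurons, and *Grin2b* was also counted in neuroblast-like and astrocyte-like cells. *Grin1* stood at 342 and 371 CPM in neuron-like cells and at 13.6 and 15.9 in OPC-like cells, the next in order (log2 difference 4.65 ± 0.26, adjusted p = 1.2e-09). *Grin2a*, which joins the receptor during postnatal maturation, was counted at 207 and 232 in neuron-like cells, and the highest value in any other class was 5.59. *Grin2b*, the GluN2 gene of young neurons that also remains in the adult striatum, stood at 886 and 912 in neuron-like cells, 42.0 and 36.4 in neuroblast-like cells and 34.5 and 33.7 in astrocyte-like cells. The neuroblast-like and astrocyte-like levels of *Grin2b* were not separated (log2 difference 0.05 ± 0.29, adjusted p = 0.92), while those of endothelial-like cells, 11.3 and 2.03, were lower than astrocyte-like ones (2.27 ± 0.38, adjusted p = 8.1e-05).

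*Grin2c* and *Grin3a* had their highest levels in glia. *Grin2c*, best known from cerebellar granule cells, was counted at 316 and 256 CPM in astrocyte-like cells. Neuron-like cells held 24.8 in library 1 and 3.19 in library 2, and the difference between both classes was 4.83 ± 0.38 on the log2 scale (adjusted p = 2.7e-08). *Grin3a* was highest in OPC-like cells at 163 and 199, followed by neuron-like cells at 12.4 and 68.7 and astrocyte-like cells at 19.5 and 28.1. The last pair was not separated (0.37 ± 0.41, adjusted p = 0.47). *Grin2d* was rare, with 117 UMIs in all cells, and highest in OPC-like cells at 15.2 and 13.2. In every other class it lay at 6.39 CPM or less, so it most likely passed the filter on low counts through OPC-like cells. A call of it in a comparison with those cells therefore gives no support of its own. *Grin2d* overlaps *Kdelr1* on the opposite strand, and the genes overlapping it there held 9134 UMIs, so its counts are uncertain. Over the 10 genes, 22 of 80 pairs of classes that neighbour each other in the order of levels passed the threshold. Between 21.2% and 66.9% of the 15142 genes tested passed it in a pair of classes. That range is over all pairs, while neighbours in the order lie closest by construction, so the shares are not comparable.

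Promoter windows of GRCm38.p6 from RefSeq, with 250 bases before and 50 after the start of transcription, were given for 5 of the 10 genes. In the GENCODE annotation of the same build the genes of the windows shown lie at chr3:80681450-80802835 (*Gria2*), chr2:25291181-25319187 (*Grin1*) and chr11:115249169-115267243 (*Grin2c*), all on the minus strand. Those of *Gria2*, *Grin1* and *Grin2c* are shown because these genes were high in several classes, in neurons and in astrocytes, respectively. Capitals mark the GC box bound by SP1, GGGCGG, and the right arm of the RE1 element bound by the neuronal repressor REST, GGACAG, each on either strand (CCGCCC and CTGTCC on the other).
Gria2, chr3:80802786-80803085, minus strand: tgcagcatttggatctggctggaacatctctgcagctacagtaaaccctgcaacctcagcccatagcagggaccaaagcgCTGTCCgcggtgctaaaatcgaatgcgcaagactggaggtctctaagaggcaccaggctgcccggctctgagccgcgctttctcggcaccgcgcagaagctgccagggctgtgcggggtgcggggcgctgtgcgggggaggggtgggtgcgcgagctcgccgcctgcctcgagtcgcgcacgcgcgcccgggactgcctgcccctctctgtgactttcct
Grin1, chr2:25319138-25319437, minus strand: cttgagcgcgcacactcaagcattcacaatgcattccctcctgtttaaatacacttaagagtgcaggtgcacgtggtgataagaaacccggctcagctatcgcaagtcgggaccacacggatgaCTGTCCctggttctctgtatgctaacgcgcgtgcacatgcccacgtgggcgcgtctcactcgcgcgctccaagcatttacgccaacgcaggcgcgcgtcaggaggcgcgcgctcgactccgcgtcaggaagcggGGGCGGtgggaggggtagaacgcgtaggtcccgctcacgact
Grin2c, chr11:115267194-115267493, minus strand: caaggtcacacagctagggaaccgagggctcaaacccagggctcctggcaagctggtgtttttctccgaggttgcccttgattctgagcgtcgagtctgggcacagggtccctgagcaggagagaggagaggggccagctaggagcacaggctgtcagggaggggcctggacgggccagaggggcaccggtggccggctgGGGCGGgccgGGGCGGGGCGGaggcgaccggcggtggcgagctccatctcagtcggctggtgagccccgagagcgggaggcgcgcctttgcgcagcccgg
The *Grin2c* window held 3 GC boxes and no RE1 right arm. The *Grin1* window held 1 of each, and the *Gria2* window held 1 RE1 right arm and no GC box. Of 32851 windows, 35.7% held a GC box and 22.2% an RE1 right arm, so both are common. A match is a description of letters, and whether any match is a bound site was not tested. The left arm of RE1, TTCAGCACC, was searched by exact letters only, with 0 matches in each of the 5 windows. An imperfect left arm beside a right arm is missed by this search, and the *Gria2* window holds such a case. Its right arm and the letters that follow read CTGTCCgcggtgctaaa. Read on the opposite strand, ggtgctaaa differs from the left arm at 1 letter. How many of all windows hold such a near match was not counted, and its binding was not tested. The *Gria4* window held neither motif and the *Grin2d* window 1 RE1 right arm. All 5 windows were richer in G and C, from 56.0% to 70.0%, than the median window at 52.7%.

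Which subunit genes set neurons apart from glia was read from the edgeR quasi-likelihood test on UMIs summed per library and class, with Benjamini-Hochberg adjustment over 15142 genes. Between neuron-like and astrocyte-like cells, 9 of the 10 genes passed the threshold of 0.05, 8 higher in neurons and *Grin2c* lower. Of all genes tested 51.9% passed, 22.6% higher and 29.3% lower. The rises ran from 1.15 ± 0.29 for *Gria2* to 6.33 ± 0.30 for *Gria3* on the log2 scale. The median over the 10 genes was 3.77, against -0.13 over all genes. *Gria2* lost its call without the neuron-like sum of library 2 (0.90, adjusted p = 0.051), without the astrocyte-like sum of library 1 (0.89, adjusted p = 0.054) and with cells of under 20% mitochondrial UMIs (0.07, adjusted p = 0.85), where the neuron-like cluster took in committed oligodendrocyte precursors.

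Between neuron-like and OPC-like cells, 9 of 10 genes also passed the threshold, against 45.8% of all genes, 21.2% higher and 24.7% lower. Of these 9 genes, 6 were higher in neurons, led by *Grin2b* (7.70 ± 0.40), *Grin2a* (6.05 ± 0.42) and *Grin1* (4.65 ± 0.26), and *Gria4*, *Grin2d* and *Grin3a* were lower. *Grin2d* most likely passed the filter through OPC-like cells, so its call gives no support of its own. *Grin2c* was among the 6, at 24.8 CPM in library 1 and 3.19 in library 2 in neuron-like cells, against 1.77 to 5.77 in OPC-like cells. Neuron-like cells held 1849 and 526 CPM of summed astrocyte markers and OPC-like cells 1411 and 1191, whose part was not tested. *Grin3a* differed by -2.13 ± 0.38 (adjusted p = 0.00019). Without the library as a block, 5 of the 10 passed, and *Gria2* (1.10 ± 0.29 in the fit with it) was then at an adjusted p of 0.054. *Gria2* also lost its call without the neuron-like sum of library 2 (0.85, adjusted p = 0.069) and under 20% mitochondrial UMIs (0.08, adjusted p = 0.85).

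**Figure D2:**
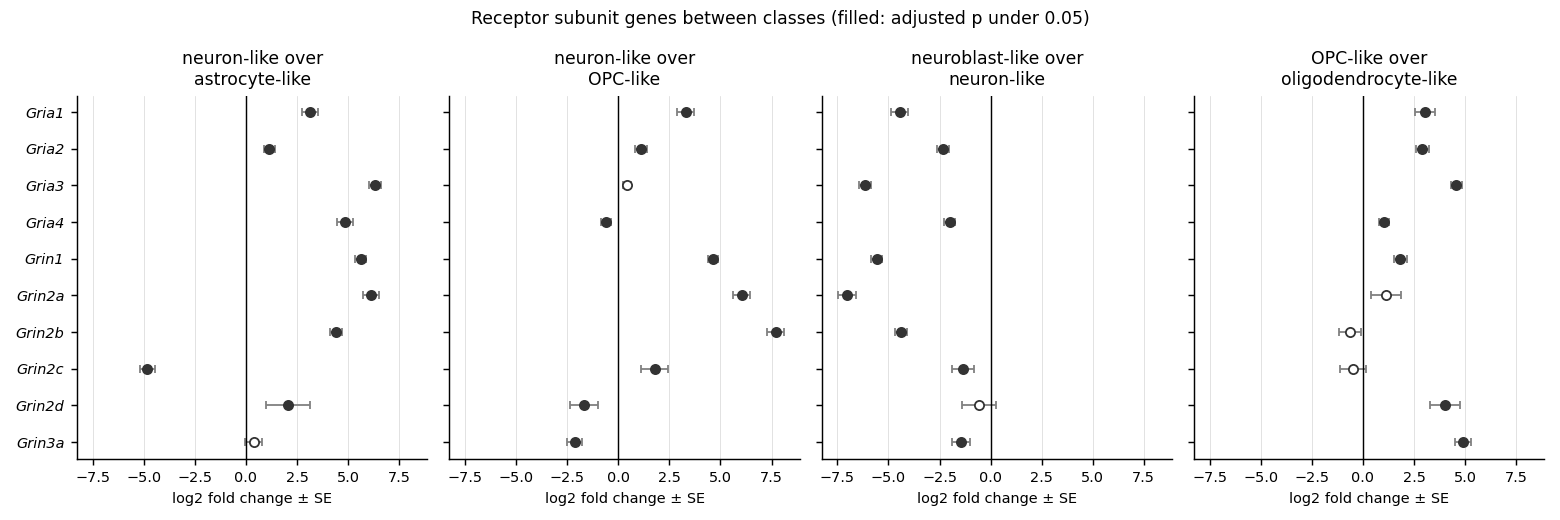
Fitted log2 fold changes (points) with standard errors (bars) of the 10 genes in 4 comparisons of classes; filled points passed an adjusted p of 0.05. *Grin2c* lies at -4.83 in neuron-like over astrocyte-like cells, opposite to the other genes that passed there, and *Grin2b* at 7.70 in neuron-like over OPC-like cells.

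Partner proteins of the receptors were tested in the same fit, where 22.6% of all genes were higher and 29.3% lower in neuron-like than in astrocyte-like cells. Of 14 genes of AMPA receptor auxiliary proteins, which steer trafficking and gating, 9 were higher in neuron-like than in astrocyte-like cells and none lower, with *Cacng3* at 5.83 and *Shisa7* at 5.20 on the log2 scale. Against OPC-like cells, 8 of the 14 were higher and 3 lower, among them *Cacng4*, which encodes a TARP, at -3.01. Of all genes 21.2% were higher there and 24.7% lower, a share that the 3 lower genes did not exceed. Of 19 genes of postsynaptic scaffold proteins, 15 were higher in neuron-like than in astrocyte-like cells, with *Dlgap2* at 5.73. *Homer3* was among the 2 that were lower, at -3.30. The kainate and delta receptor genes gave 6 of 7 higher in neuron-like than in astrocyte-like cells, with *Grik3* at 4.61. Of 7 genes of cofactors, kainate receptor partners and RNA editing, 6 were tested and 5 were higher, with *Neto1* at 5.91 and *Adarb1*, an RNA editing enzyme, at 2.79.

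The neuroblast-like class, named for the young neurons next to the lateral ventricle, carried *Gria2*, with the other subunits lower in its sums. Those sums pooled neuroblasts with deeper progenitor-like cells, 342 and 150 in number with median depths of 6979 and 10056 UMIs. They do not describe each cluster, since *Grin2b* stood at 202 CPM in both libraries in the *Pbx3*-led one. Compared with neuron-like cells, 9 of the 10 genes were lower in the class sums and none higher. Of all genes tested 55.2% passed, 27.2% lower. One of the 9, *Grin2c* (-1.33 ± 0.54, adjusted p = 0.024), was 0.16 (adjusted p = 0.89) without the neuron-like sum of library 1. Neuron-like cells held it at 24.8 CPM in library 1 and 3.19 in library 2, beside 1849 and 526 CPM of summed astrocyte markers with all 10 detected, whose part in the result was not tested. The falls were deepest for *Grin2a* (-7.05 ± 0.44), *Gria3* (-6.16 ± 0.30) and *Grin1* (-5.57 ± 0.27), and *Gria2* was lower by 2.33 ± 0.30. The partners moved with them, with 11 of 14 auxiliary genes lower and 1 higher, *Cacng3* at -5.38 and *Shisa9* at -5.36. Of the scaffold genes 13 of 19 were lower, and *Homer3*, at 3.96, was among the 2 that were higher. Within the class, levels were compared between finer clusters named by their leading genes or markers, in a fit of 14849 genes. Progenitor-like cells held *Gria2* at 165 and 145 CPM, neuroblasts led by *Stmn2* at 558 and 467, and a shallower cluster led by *Pbx3* at 1383 and 1301. *Grin2b* followed the same order, at 14.6 and 12.3, 39.6 and 40.7, and 202 and 202.

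From progenitor-like to *Stmn2*-led cells, 4 of 10 genes rose, while 10.6% of all genes rose and 24.7% passed in either direction, and they were *Gria1*, *Gria2* (1.71 ± 0.27, adjusted p = 1.3e-05), *Gria4* and *Grin2b* (1.47 ± 0.34, adjusted p = 0.00099). From *Stmn2*-led to *Pbx3*-led cells 4 genes rose, while 6.68% of all genes rose and 16.0% passed in either direction, among them *Grin2b* by 2.13 ± 0.32 (adjusted p = 8.9e-06) and *Gria2* by 1.20 ± 0.27 (adjusted p = 0.0020). Summed neuron markers moved with these levels, at 355 and 307 CPM in progenitor-like cells, 2826 and 3067 in *Stmn2*-led cells and 5957 and 6511 in *Pbx3*-led cells, with all 8 markers detected in each. *Pbx3*-led cells were shallow, with median depths of 1203 and 986 UMIs. Their median mitochondrial share was 11.9% and 15.6%, against 4.01% and 5.19% in *Stmn2*-led cells. Summed oligodendrocyte markers were 3989 and 1784 CPM against 1463 and 806, with all 8 detected. The part of markers, depth and mitochondrial share in the result was not tested. With each cell thinned to 1000 UMIs, 1 gene in place of 4 rose from progenitor-like to *Stmn2*-led cells.

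OPC-like cells held *Gria2*, *Gria3*, *Gria4* and *Grin3a* at high levels, though *Gria2* was higher in neuron-like cells and *Gria3* was not separated from those. In OPC-like cells *Grin2a*, at 4.19 and 2.21 CPM, and *Grin2b*, at 3.15 and 4.86, were not separated from endothelial-like cells. Against astrocyte-like cells, 7 of 10 genes passed the threshold, 5 higher and 2 lower, against 42.6% of all genes, 20.4% higher and 22.2% lower. *Gria3* was higher by 5.90 ± 0.30 on the log2 scale, *Gria4* by 5.47 ± 0.35 and *Grin3a* by 2.50 ± 0.35. *Grin2b* was lower (-3.27 ± 0.45), as was *Grin2c* (-6.60 ± 0.43). *Grin1*, higher by 0.97 ± 0.34 (adjusted p = 0.022), was at -0.75 (adjusted p = 0.086) with doublets kept. Of the AMPA receptor auxiliary genes, 6 of 14 were higher in OPC-like cells and none lower, led by *Cacng4* at 5.38.

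Against oligodendrocyte-like cells, 7 of 10 genes were higher in OPC-like cells and none lower. Of all genes tested 52.8% passed, 23.5% higher. The median of the 10 genes was 2.37 and that of all genes -0.11. With library sizes alone in place of TMM, the median of all genes in this comparison moved to 0.58, and the calls over all genes moved from 3556 higher and 4439 lower to 7457 higher and 1678 lower. The values here are relative to the TMM scale, and 8 of the 10 genes were called with library sizes alone. The auxiliary genes gave 10 higher and 1 lower of 14, with *Cacng4* at 5.29 and *Shisa7* at 5.15.

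Along the oligodendrocyte lineage 8 of the 10 subunit genes fell at the first step and 3 at the second. Committed precursors and new oligodendrocytes, 145 and 129 cells, stood between OPC-like cells and mature oligodendrocytes, 1063 and 1049 cells. None rose at the first step. Of all genes tested 40.5% passed, 21.8% falling. The median of the 10 was -1.78 and that of all genes -0.04, or -0.39 with library sizes alone. *Gria3* went from 291 and 312 CPM to 34.9 and 26.6 (-2.87 ± 0.28, adjusted p = 2.1e-10). *Grin3a* went from 163 and 199 to 15.2 and 9.96 (-3.26 ± 0.35, adjusted p = 1.5e-09). *Gria2* went from 1133 and 926 to 472 and 302 (-1.01 ± 0.26, adjusted p = 0.0021). The groups did not overlap for any of these 3 genes, which describes the values only, since the share of all genes without overlap is not given here.

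Some members were close to 0 after this step. *Gria1* fell from 177 UMIs in OPC-like cells to 3, which in CPM is 65.0-fold with an exact 95% counting interval of 21.9 to 318. *Grin2d* went from 59 UMIs to 0, which is at least 21.7-fold lower when 3 counts are allowed over the group. The fall of *Grin2a* rested on 13 UMIs against 1 and was 14.3-fold with an interval of 2.15 to 609. Intervals and bounds of this kind cover counting error only.

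At the second step, to mature oligodendrocytes, 3 of 10 genes fell and none rose, while 31.2% of all genes passed and 15.4% fell. The median of the 10 was -0.02 and that of all genes 0.03. *Gria2* dropped to 23.4 and 17.1 CPM (-3.88 ± 0.29, adjusted p = 1.3e-12), *Gria3* to 2.07 and 2.02 (-3.17 ± 0.35) and *Grin3a* to 1.24 and 1.01 (-2.57 ± 0.50). *Gria4* differed from its fellow subunits. It stood at 51.4 and 47.9 in committed precursors and at 34.6 and 41.0 in mature cells, a difference of -0.08 ± 0.24 (adjusted p = 0.84), after a fall of -1.09 ± 0.24 at the first step. Mature oligodendrocytes held more *Gria4* UMIs than *Gria2* UMIs in both libraries. In endothelial-like cells *Gria4* stood at 2.68 and 1.22.

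**Figure D3:**
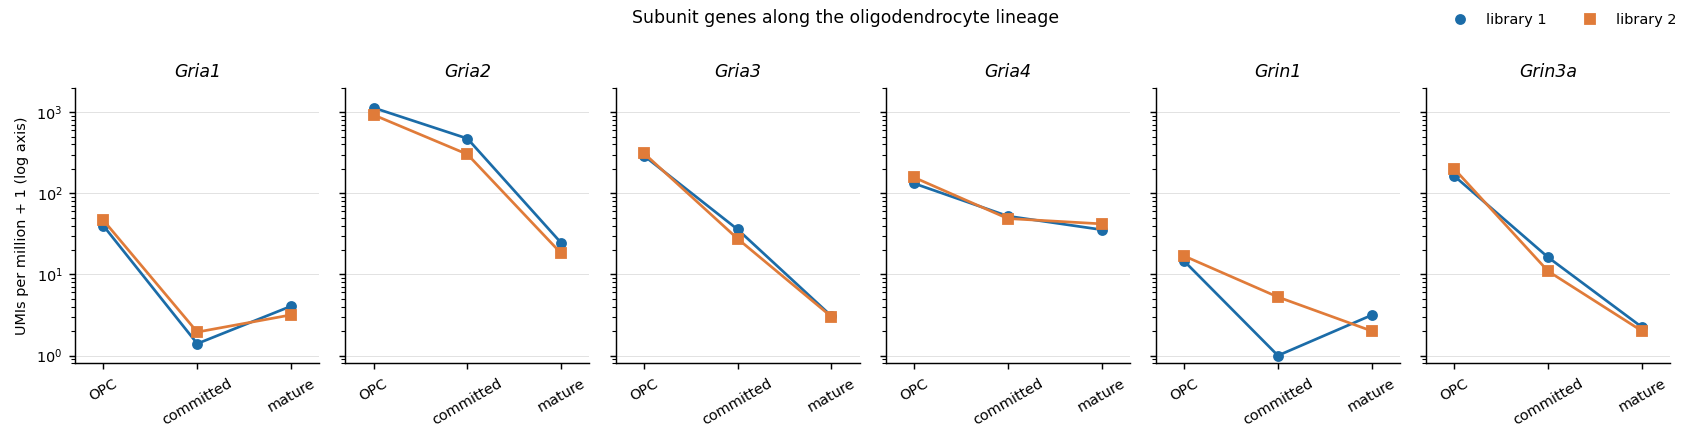
CPM plus 1, on a log axis, of 6 subunit genes in OPC-like cells, committed precursors or new oligodendrocytes, and mature oligodendrocytes, with 1 line for each library. *Gria2*, *Gria3* and *Grin3a* fall at both steps, while *Gria4* falls at the first step and lies at 34.6 and 41.0 in mature cells.

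The partners are read beside the shares of all genes. At the first step 40.5% of all genes passed and 21.8% fell, and at the second 31.2% passed and 15.4% fell. At the first step 9 of 14 auxiliary genes fell and none rose, with *Shisa7* at -4.29 and *Cacng4* at -3.42. Of the scaffold genes, 10 of 19 fell and 3 rose, *Dlg1*, the gene of SAP97, by 2.51. At the second step 5 auxiliary genes fell, with *Cacng4* at -3.45, and of the kainate and delta genes 6 fell while *Grik1* rose by 2.15. The scaffold gene *Homer2* fell by 4.94 on the log2 scale.

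Astrocyte-like cells were characterised by *Gria2* and *Grin2c*, with *Grin2b*, *Grin3a* and *Gria1* at lower levels. Against endothelial-like cells these 5 genes were higher and none lower. Of all genes tested 57.0% passed, 28.1% higher. *Grin2c* stood out by 5.64 ± 0.38 on the log2 scale and *Gria2* by 4.78 ± 0.36. *Grin1*, whose protein every NMDA receptor needs, was counted at 5.86 and 5.15 CPM, against 5.65 and 1.63 in endothelial-like cells (0.42 ± 0.42, adjusted p = 0.37). Astrocyte-like cells held 262 and 195 CPM of summed neuron markers, against 228 and 84.2 for endothelial-like ones, with all 8 detected in both. Of the partners, 6 of 14 auxiliary genes were higher, *Cacng8* by 4.87 and *Shisa9* by 4.38.

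Within the astrocyte-like class the AMPA subunits were uneven. Cells of the cluster led by *Agt*, which encodes angiotensinogen, held *Gria1* at 37.2 CPM in library 1 and 244 in library 2. In the cluster led by *Crym*, *Gria1* stood at 2.16 and 5.62. The groups did not overlap, which describes the values only, since the share of all genes without overlap is not given here. The difference of 4.66 ± 0.51 (adjusted p = 1.1e-07) was the largest of the 10 genes. It was 2.88 without the *Agt*-led cells of library 2. *Gria2* was also higher, at 1530 and 1567 against 648 and 645 (1.12 ± 0.26, adjusted p = 0.0020), as were *Grin2b* (0.92 ± 0.30, adjusted p = 0.023) and *Grin3a* (1.18 ± 0.39, adjusted p = 0.026). *Grin2c* stood at 619 and 352 against 267 and 266, which did not pass the test (0.61 ± 0.26, adjusted p = 0.078). A further cluster, led by *Clu*, held *Gria2* at 136 and 156 and *Grin2c* at 198 and 215. Its cells were shallow, with medians of 1184 and 1466 UMIs, and it was not compared by test.

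In all, 4 of 10 genes rose from *Crym*-led to *Agt*-led cells and none fell, while 6.74% of all genes tested rose and 20.5% passed in either direction. The *Agt*-led cells were shallower, with median depths of 2000 and 1740 UMIs against 8921 and 7786, and their mitochondrial share was higher, with medians of 10.0% and 12.7% against 4.91% and 6.52%. Summed neuron markers were 301 and 219 CPM against 165 and 145, and summed oligodendrocyte markers 2936 and 965 against 863 and 595, with all 8 of each list detected. The part of depth, mitochondrial share and these markers was not tested. With cells thinned to 1000 UMIs *Gria1* was still higher, by 3.11, and *Gria2* by 1.50, while *Grin3a* was no longer called (0.73, adjusted p = 0.31). Without the *Crym*-led cells of library 1, or the *Agt*-led cells of either library, no more than 2 of the genes were called, *Gria1* among them, and *Grin3a* lost its call whichever single sum was left out (adjusted p from 0.059 to 0.16). Ependymal-like cells, which line the ventricle, differed from *Crym*-led astrocytes by lower *Grin2c* (20.4 and 10.9 CPM, -4.49 ± 0.41) and *Gria2* (258 and 122, -2.21 ± 0.29) and by higher *Gria1* (26.7 and 38.2, 2.41 ± 0.70, adjusted p = 0.0038). Ependymal-like cells also held more of the summed neuron markers, 805 and 566 CPM against 165 and 145, whose part was not tested. With *Grin3a*, which was lower, 4 of 10 genes passed there, against 30.8% of all genes, 14.2% higher and 16.6% lower. After thinning, *Gria1* (0.75, adjusted p = 0.64) and *Grin3a* were no longer called.

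Astrocyte-like cells were also divided at the study's threshold, by detected *Crym*. The study lists ependymal cells as a class apart, while here they formed no class of their own. How many ependymal-like cells fell in each group is not given here. This split draws on largely the same cells and UMIs as the clusters above, so its differences are not independent of theirs. How many *Agt*-led cells, where *Gria1* was high, fell in each group is not given here. Of the subunit genes tested, *Gria1* differed most. With 13 and 20 UMIs in 520 and 447 *Crym*+ cells, it reached the detection limit only through *Crym*- cells, where it is higher. Its place among the tested genes therefore gives no support of its own, and its p-value is left out. The groups held 520 and 447 *Crym*+ cells and 851 and 586 *Crym*- cells. Only *Gria1*, *Gria2*, *Grin2b* and *Grin2c* were detected in enough cells to be tested. Besides *Gria1*, *Gria2* and *Grin2b* were lower in *Crym*+ cells and *Grin2c* was not called. Of the 6106 genes tested 11.8% passed, 6.24% lower. *Gria1* stood at 5.67 and 8.16 CPM in *Crym*+ cells against 21.6 and 115 in *Crym*- cells (-3.14 ± 0.23). *Gria2* stood at 597 and 618 against 854 and 883 (-0.53 ± 0.08) and *Grin2b* at 24.9 and 29.4 against 44.0 and 38.5 (-0.60 ± 0.18, adjusted p = 0.010). *Grin2c*, at 290 and 251 against 341 and 262, was not called (-0.16 ± 0.09, adjusted p = 0.22).

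Within a library the difference of *Gria1* was -1.79 in library 1 and -3.70 in library 2 on the log2 scale, so its size rests on library 2. The fit has 1 residual degree of freedom and draws its spread from all genes, so the SE of *Gria1* does not cover this gap between libraries. Without the library as a block none of the 4 genes was called by edgeR, and 3 had an unadjusted p under 0.05. DESeq2 gave no adjusted p for *Gria1* and *Grin2b* and called 1 of the other 2, *Gria2*. Depth moved with the groups, with median UMIs of 2494 and 5354 per *Crym*+ cell and 1516 and 2129 per *Crym*- cell. Summed neuron markers were 225 and 202 CPM in *Crym*+ and 297 and 187 in *Crym*- cells, and summed oligodendrocyte markers 1541 and 683 against 2905 and 765, with all 8 of each list detected in each group. Their part and that of depth was not tested. Cells thinned to 1000 UMIs gave *Gria2* at -0.76 and *Grin2c*, then called, at -0.50. Of the partners, 2 auxiliary genes, 2 kainate and delta genes, 7 scaffold genes and 0 cofactor genes could be tested. Only *Shisa9* passed, higher in *Crym*+ cells by 0.56 (adjusted p = 0.00034).

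**Figure D4:**
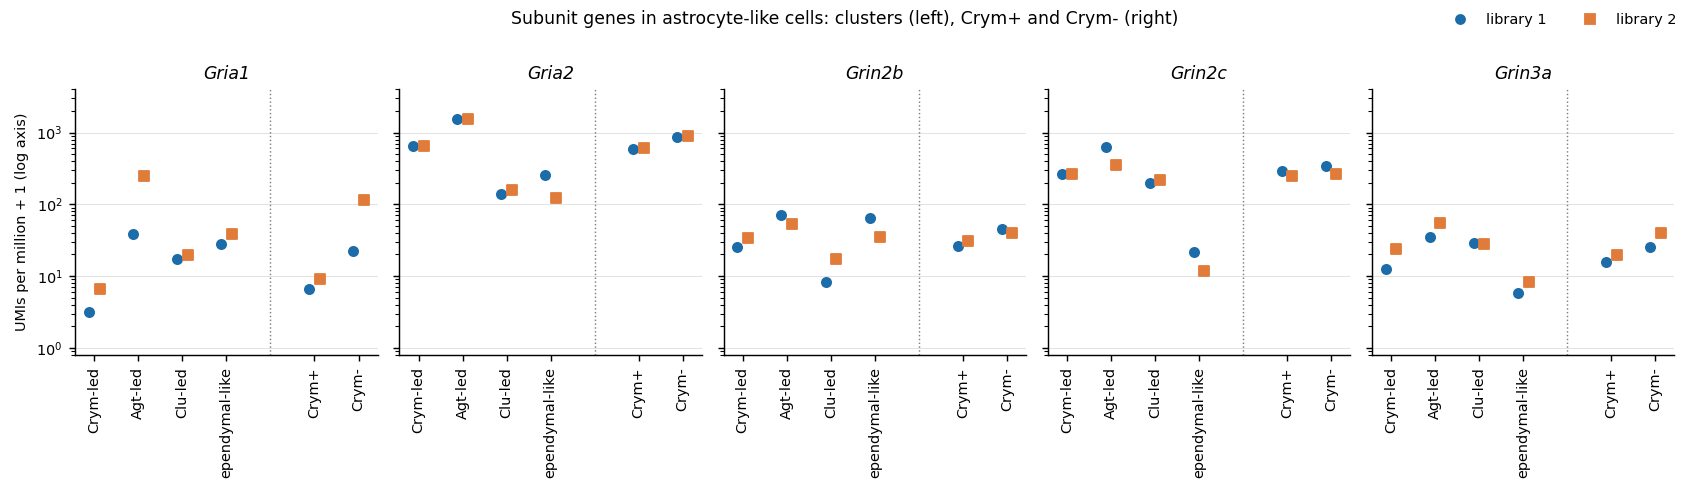
CPM plus 1, on a log axis, of 5 subunit genes in astrocyte clusters and ependymal-like cells (left of the dotted line) and in *Crym*+ and *Crym*- astrocyte-like cells (right), with 1 point for each library. *Gria1* is at most 5.62 in *Crym*-led cells and at least 37.2 in *Agt*-led cells, and *Grin2c* is near 267 in *Crym*-led cells and 20.4 or less in ependymal-like cells.

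In microglia, vessels and macrophages the subunit genes were low. Between microglia-like and endothelial-like cells edgeR called none of the 10 genes and found none at an unadjusted p under 0.05, and DESeq2 also called none, against 46.9% of all genes tested. With library sizes alone, 1 of the 10 was called. Mural-like cells, which wrap vessels, held *Gria3* at 14.0 and 8.26 CPM against 5.65 and 0.81 (1.46 ± 0.48, adjusted p = 0.022) and *Grin1* at 1.07 and 0 against 5.65 and 1.63 (-2.09 ± 0.87, adjusted p = 0.024). These were 2 of 10 genes, 1 in each direction, against 27.5% of all genes, 12.5% higher and 15.0% lower. Neither was called with clusters at the finer resolution of 0.32, with at least 500 detected genes per cell or after thinning. Oligodendrocyte-like cells differed from endothelial-like cells in 4 of 10 genes, against 54.8% of all genes, 30.4% higher and 24.4% lower. *Gria2*, *Gria3* and *Gria4* were higher, *Gria4* by 4.33 ± 0.39, and *Grin2d* was lower, on 4 and 0 UMIs against 3 and 5. At resolution 0.32, and again with at least 500 detected genes per cell, 1 of the 10 was called. *Gria2*, at 1.92 (adjusted p = 0.00012), was -0.11 (adjusted p = 0.67) with cells of under 20% mitochondrial UMIs. *Gria3*, at 1.28 (adjusted p = 0.0072), was -0.45 (adjusted p = 0.38) there and -0.14 (adjusted p = 0.77) with at least 500 genes. The oligodendrocyte-like class also held the committed precursors and new oligodendrocytes, with *Gria2* at 472 and 302 CPM, while mature cells held 23.4 and 17.1, within the range of endothelial-like cells, 45.5 in library 1 and 9.35 in library 2. OPC-like cells were higher in 7 and lower in none, while 26.8% of all genes were higher and 55.8% passed in either direction, with *Grin3a* at 6.00 ± 0.55.

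The scale set by TMM moved the split of calls over all genes. With library sizes alone, the share of called genes that were higher in the class named first went from 43.5% to 57.7% in neuron-like over astrocyte-like cells, from 48.0% to 72.3% in OPC-like over astrocyte-like cells and from 48.0% to 67.4% in OPC-like over endothelial-like cells. It went from 55.5% to 38.7% in oligodendrocyte-like and from 54.7% to 37.2% in microglia-like over endothelial-like cells. In the finer fit it went from 46.2% to 22.8% at the first and from 50.6% to 26.9% at the second step of the oligodendrocyte lineage, from 32.8% to 48.5% in *Agt*-led, from 46.1% to 69.9% in ependymal-like and from 41.6% to 58.8% in *Pbx3*-led cells. Against interneuron-like cells it went from 67.2% to 47.7% in D1-marker and from 60.0% to 41.6% in D2-marker neurons. The median log2 difference of all genes moved by -0.35 to 0.69. The 95 values of subunit genes recomputed on that scale kept their sign, and 3 lost their call, *Grin3a* in ependymal-like cells, *Grin2b* in D2-marker over interneuron-like cells and *Grin2b* in *Crym*+ cells.

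The neurons were next divided by type. No cluster separated the spiny projection neurons of the direct pathway, which carry the D1 dopamine receptor, from those of the indirect pathway, which carry D2. Cells with at least 3 UMIs of D1 and D2 marker genes, and at least 80% of them of 1 kind, were therefore called D1-marker (105 and 97 cells) or D2-marker neurons (77 and 40 cells). No subunit gene separated them beyond the spread. None of the 10 genes was called between them by edgeR, against 0.444% of 14849 genes, and 1, *Grin3a*, had an unadjusted p under 0.05. DESeq2 also called none. *Gria2* stood at 2498 and 2297 CPM in D1-marker and 2324 and 2134 in D2-marker neurons (0.05 ± 0.26, adjusted p = 1.0), and *Grin2b* at 1074 and 1024 against 1156 and 1287 (-0.28 ± 0.23, adjusted p = 0.82).

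*Grin3a* was the exception in size. D1-marker neurons held 6 UMIs in library 1 and 36 in library 2, or 11.5 and 63.9 CPM, and D2-marker neurons 1 and 0. The fitted difference was 3.73 ± 1.20 (adjusted p = 0.11), and the ratio of summed CPM was 26.2 with an exact counting interval of 4.45 to 1058. It was called without the D1-marker cells of library 1 (4.38, adjusted p = 0.013). A cluster of 48 and 58 cells led by *Npy* and *Sst* was named interneuron-like from 6 raised markers. Its leading genes also held *C1ql3*, *Slc17a7*, *Cck* and *Nrn1*, which are not among those markers, so it may be mixed. Interneuron-like cells held *Grin3a* at 17.5 and 152 CPM, and D2-marker neurons lay below them (-4.80 ± 1.09, adjusted p = 0.00082), with *Grin2b* above (0.90 ± 0.25, adjusted p = 0.018). These were 2 of 10 genes, against 8.31% of all genes, 4.99% higher and 3.32% lower. The *Grin3a* call was lost without the interneuron-like cells of library 2 (-2.78, adjusted p = 0.45) and after thinning (-2.47, adjusted p = 0.42). Between D1-marker and interneuron-like cells edgeR and DESeq2 called none of the 10, and 3 had an unadjusted p under 0.05, against 4.71% of all genes called by edgeR. Of all listed partners, 1 was called between D1-marker and D2-marker neurons, the kainate receptor gene *Grik3*, lower in D1-marker neurons by 4.42 on the log2 scale (adjusted p = 2.7e-06).

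The make-up of each receptor's UMIs is given as shares by class and library, without a test. In neuron-like cells *Gria2* made up 70.3% of the AMPA subunit UMIs in library 1 and 69.8% in library 2. In OPC-like cells it made up 71.1% and 64.3%, which overlapped the neuron-like shares, and in astrocyte-like cells 97.1% and 92.4%. In *Agt*-led cells of library 2 its share was 86.4%, with *Gria1* at 13.4%. Mature oligodendrocytes were the group of the lineage where *Gria2* was not the major gene, at 37.1% and 27.5%, with *Gria4* at 54.8% and 65.8%. Among NMDA subunit UMIs, *Grin3a* made up 79.5% and 84.0% in OPC-like cells, and *Grin2c* made up 87.2% and 81.9% in *Crym*-led and 83.9% and 74.5% in *Agt*-led cells. In neuron-like cells *Grin2a* was 19.0% and 20.3% of *Grin2a* and *Grin2b* together, with exact 95% intervals of 17.1% to 20.9% and 18.3% to 22.5%. These are shares of 3′ UMIs and not of protein or of receptors.

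**Figure D5:**
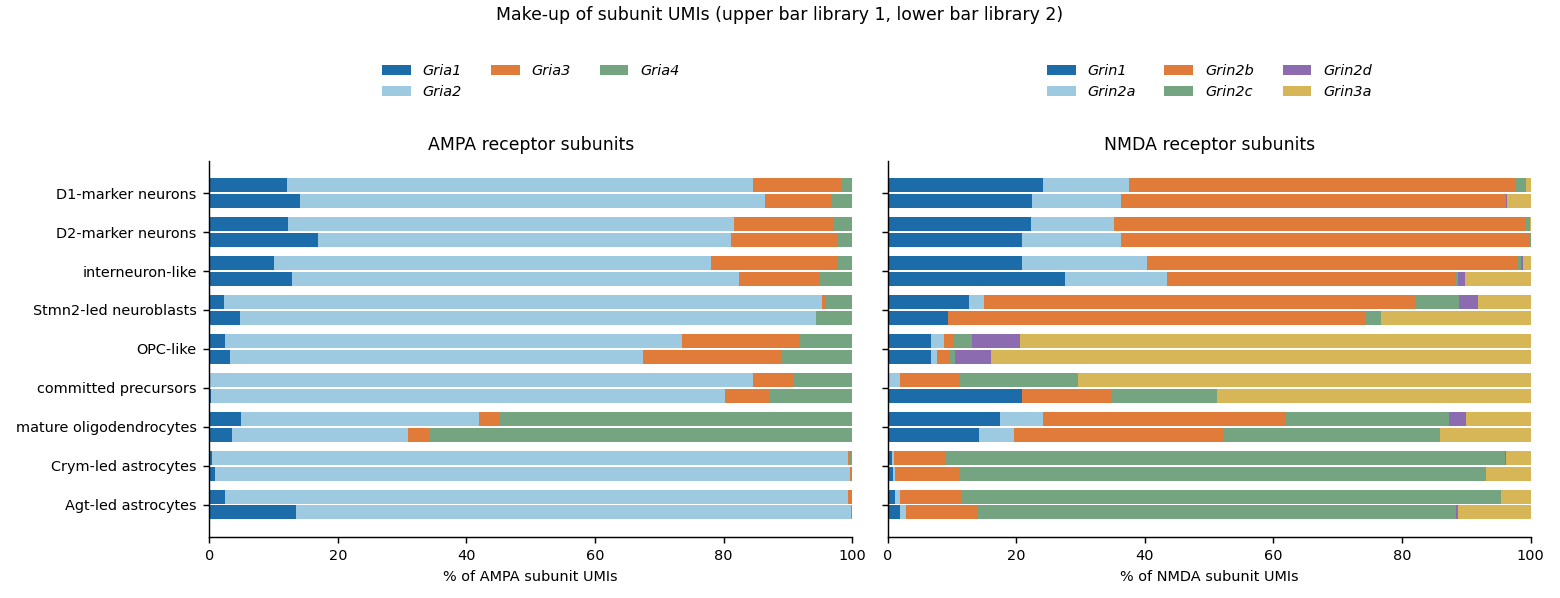
Share of each subunit gene among the AMPA (left) and NMDA (right) subunit UMIs of 9 groups of cells, with the upper bar for library 1 and the lower for library 2. *Gria2* fills over 60% of the AMPA bars except in mature oligodendrocytes, *Grin2b* leads the NMDA bars of neurons, *Grin3a* those of OPC-like cells and *Grin2c* those of astrocytes.

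Counted by cells, *Gria2* was detected in 72.6% and 85.8% of neuron-like cells, 94.3% and 93.3% of OPC-like cells and 49.8% and 68.6% of astrocyte-like cells, in library 1 and library 2. Median depths were 2431 and 2638, 6976 and 7258, and 1798 and 3113 UMIs. In endothelial-like cells, with medians of 2710 and 3248 UMIs, it was 8.36% and 2.83%. With each cell thinned to 1000 UMIs, the shares were 75.8% and 80.3% in neuron-like, 69.7% and 60.9% in OPC-like, 41.1% and 46.5% in astrocyte-like and 1.80% and 0.62% in endothelial-like cells. *Grin2c* was detected in 30.2% and 24.2% of thinned astrocyte-like cells, and in 4 of 610 and 0 of 484 thinned endothelial-like cells. The exact 95% interval of the last reaches 0.759%. *Grin3a* was detected in 15.0% and 19.1% of thinned OPC-like cells, and in 0 of 610 and 1 of 484 thinned endothelial-like cells. Thinning left out 114 and 52 neuron-like, 12 and 8 OPC-like, 349 and 106 astrocyte-like and 191 and 116 endothelial-like cells with fewer UMIs.

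The genes whose levels over the 10 classes were most like those of a member were listed by Pearson's r of log2(CPM + 1), as a description over classes that share libraries. *Grin2c* was followed most closely by *Gm20383* (r = 0.99), *Slc25a34* (0.98) and *Cideb* (0.97). *Grin3a* was followed by *Olfm2* (0.98), *Dhrs13* (0.98) and *Gprin2* (0.97), and *Gria2* by *Nrcam* (0.98), a gene of a neuronal adhesion molecule, and *Abcg4* (0.97). The first genes for the others were *Syndig1* for *Gria1*, *Cntn4* for *Gria3*, *Gm19938* for *Gria4*, *Pak6* for *Grin1*, *2310075C17Rik* for *Grin2a*, *Lratd1* for *Grin2b* and *Rcn1* for *Grin2d*. *Syndig1* encodes a partner of AMPA receptors and *Cntn4* an adhesion molecule of axons.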

How the data were processed

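Each of the 2 libraries was deposited as a matrix of raw UMI counts per gene and barcode, made by the authors with Cell Ranger 4.0 per the labels; the study's text names another version. No other normalization had been applied. The 10 genes, the partner lists and the comparisons were chosen with earlier results of these data known. Barcodes with at least 300 genes were kept (libraries of 44597660 and 37982720 UMIs), doublets were removed with Scrublet in scanpy 1.11.5 (115 and 152 cells), and cells were integrated and clustered in Seurat 5.3.0 (30 components, 2000 variable genes, resolutions 0.08 and 1.0). The 58 genes left out of clustering were the members, 47 listed genes and *Crym*. A cluster was named from at least 3 markers raised at least 2-fold with at least 1 among its top 50 genes, limits set after the counts were seen. *Crym*+ cells had a ln-normalised level over 0.25, and genes detected in at least 10% of cells of either group were tested there.

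UMI counts were summed per library and class and tested with edgeR 4.0.16 (quasi-likelihood, TMM, filterByExpr, two-sided, Benjamini-Hochberg adjustment, threshold 0.05), with the library as a block because all classes of a library come from 1 suspension. The block has 2 levels, 1 per library. DESeq2 1.42.0 was an alternative. Fold changes of edgeR were shrunken with a prior count of 2. A standard error is the fold change of the test itself, which is shrunken less, divided by the root of F. The script was tested on simulated counts. Named genes were the members, and of each partner list up to 4 per comparison with the greatest changes among the called, and the 3 most similar genes of each member. Some of these are not reported here. Motifs were searched on both strands.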

Additional observations from a re-analysis of the deposited data

How the results depend on the processing

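Of 1400 values recomputed for 95 pairs of member and comparison, 120 lost their call, 8 gained one and 14 changed sign. The other 1258 kept direction and, where an adjusted p was given, side of the threshold. Values without an adjusted p, such as those with a whole library left out, were counted by direction alone. Causes were not tested. Leaving out single sums, finer comparisons, the D1 and D2 grouping and the neuron class without its shallow cluster were chosen after seeing the data. Whole libraries left out gave values without a test.

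Without the replicate block, 5 of 10 genes were called between neuron-like and OPC-like cells, 1 in mural-like over endothelial-like, 2 in *Agt*-led over *Crym*-led, 1 in D2-marker over interneuron-like and 0 in *Crym*+ over *Crym*- cells. Counts of the other comparisons stayed within 1.5 times those with the block.

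DESeq2 called 1 gene in mural-like cells, 1 in D2-marker over interneuron-like and 1 in *Crym*+ cells. Library sizes alone gave 1 in microglia-like and 1 in D2-marker over interneuron-like cells. Without a filter, 7 were called in oligodendrocyte-like over endothelial-like, 1 in microglia-like, 1 in D1-marker over D2-marker and 7 in *Agt*-led cells. At resolution 0.32, 1 was called in oligodendrocyte-like and 0 in mural-like cells, and with at least 500 genes again 1 and 0. With doublets kept, 8 were called in astrocyte-like over endothelial-like and 1 in mural-like cells. After thinning to 1000 UMIs, 2 were called in oligodendrocyte-like, 0 in mural-like, 2 in ependymal-like, 1 in *Stmn2*-led over progenitor-like, 2 in D1-marker over interneuron-like and 1 in D2-marker over interneuron-like cells.

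Leaving out 1 sum gave 0 to 1 called in microglia-like, 1 to 2 in mural-like, 0 to 1 in D1-marker over D2-marker, 1 to 4 in *Agt*-led, 2 to 4 in *Pbx3*-led, 0 to 1 in D1-marker over interneuron-like and 0 to 2 in D2-marker over interneuron-like cells.

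As means of both libraries, *Gria2* made up 70.1% of neuron-like AMPA UMIs in the main setting and 70.8% with doublets kept. Under 20% mitochondrial UMIs it was 73.5%, in a cluster that also took in committed oligodendrocyte precursors. In oligodendrocyte-like cells the share fell from 60.5% in the main setting to 31.1% with that limit and 33.6% at resolution 0.32. Thinned cells of both libraries with a UMI were 43.8% for *Gria2* in astrocyte-like, 65.3% in OPC-like, 27.2% for *Grin2c* in astrocyte-like, 22.8% for *Grin2a* in neuron-like and 17.0% for *Grin3a* in OPC-like cells.

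Signs changed for *Gria2* in OPC-like over astrocyte-like cells, never called (-0.11 at resolution 0.32, -0.084 with at least 500 genes, -0.0071 under 20% mitochondrial, -0.047 with members in clustering, -0.21 to 0.37 without 1 sum or library). *Grin1* there was -0.75 with doublets kept. In oligodendrocyte-like over endothelial-like cells *Gria2* was -0.11 under 20% mitochondrial, and *Gria3* -0.14 with at least 500 genes and -0.45 under 20% mitochondrial. In mural-like cells *Grin1* was 0.30 with doublets kept and *Gria3* -0.094 with at least 500 genes. *Grin2c* in neuroblast-like over neuron-like cells ran from -1.89 to 0.16 without 1 sum.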
